A study of Mus musculus with 30 samples.

Results

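The 35 genes described here encode regulators of DNA methylation and chromatin, and the data are the accessible regions assigned to them in mouse T cells. A region, or peak, was assigned to a gene when that gene's body was the nearest protein-coding body within 100 kb. This gave 324 of the 69316 peaks in the 26-library table, each 401 bp wide. The number per gene ran from 1 (Uhrf1, Crebbp, Hdac3) to 44 (Arid1b), with a median of 6. Of the 324 peaks, 22 covered a listed transcription start site, 241 lay elsewhere in a gene body and 61 lay outside the body. Another gene body was equally near for 3 of them (Kmt2d with Prkag1, Hdac3 with Rell2, Kdm5a with Ccdc77). Nearness does not show which gene a region acts on.

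Accessibility was measured by ATAC-seq, in which a transposase inserts sequencing adapters into open DNA, or by the omniATAC variant. The table holds 13 groups of 2 libraries from lymph nodes and spleen. Wild-type (WT) cells carried a Foxp3-IRES-hCD2 reporter allele on C57BL6/J and were sorted as regulatory T cells (Treg, CD4+hCD2+) or conventional cells (Tconv, CD4+hCD2-). BATFKO Treg had the same reporter with Batf-/-. Central Treg (cTreg) and effector Treg (eTreg) were sorted with CCR7 high and CD44 low and with CCR7 low among their gates. Naive (Tnaive) and effector (Teff) conventional cells were sorted by the same gates among hCD2- cells. Foxp3R397W Treg were CD4+hCD2+GFP- cells of the genotype Foxp3R397W-IRES-hCD2/Foxp3-IRES-GFP, and their control was the same gate in Foxp3WT-IRES-hCD2/Foxp3-IRES-GFP, both on C57BL6/J. The R397W allele puts tryptophan for an arginine in the DNA-binding part of Foxp3. The other 4 groups shared the genotype Foxp3KO-IRES-hCD2.Batf-/- (DKO Treg) and carried mock, Foxp3, BATF or both retroviruses. They were sorted as CD4+hCD2+ cells positive for CD45.2, GFP and Thy1.1 and negative for CD45.1. For these groups no strain is stated, and for none of the groups an age. Accessibility cannot test whether a targeted allele was null, so genotypes are as labelled.

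DNA methyltransferases (Dnmt1, with its partner Uhrf1, and Dnmt3a and Dnmt3b) write cytosine methylation and TET enzymes oxidise it on the way to removal. Polycomb complexes, histone deacetylases and acetyltransferases, trithorax-type methyltransferases and ATP-dependent remodelers set histone marks and move nucleosomes. In Treg, demethylation of enhancers at Foxp3 and other signature genes accompanies stable lineage identity, and Ezh2, which trimethylates H3K27, is induced on activation.

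Each library had between 3716499 and 25462278 reads in peaks. No label says that the 2 libraries of a group came from separate animals, so the tests cover the variation among these samples alone, and it may be technical. The authors' 2 tables share 18 libraries but give 12 of them different group names. The names of the 26-library table are used here. The libraries used as Teff and Tnaive are called Foxp3KO Treg and the control of Foxp3KO in the other table, and those used as eTreg and cTreg are called the control of Foxp3R397W and Foxp3R397W Treg. Those used as Foxp3R397W and its control are called eTreg and cTreg there. Every contrast with any of these 6 groups therefore rests on the naming. Under the names of the other table eTreg against cTreg would call 7 member peaks in place of 126 (background 37.1% of all peaks, 19.7% higher and 17.4% lower), and Foxp3R397W against its control 126 in place of 7 (background 2.63% of all peaks, 0.776% higher and 1.85% lower). The libraries that the other table calls Tnaive and Teff are not in the 26-library table, so contrasts with Tnaive or Teff could not be recomputed under its names. Which naming is right was not settled, nor therefore which of these libraries were made by omniATAC. Summed scores over 77 peaks at the naive T cell markers Ccr7, Tcf7 and Lef1, genes that resting T cells express, were 7255 and 6778 in the eTreg libraries against 11415 and 10312 in cTreg, with 49 peaks lower and 2 higher. CCR7 was also a sort gate for these groups. Teff had 9138 and 8349.7 against 13774 and 12683 in Tnaive, with 50 lower and 3 higher. The libraries that the other table calls eTreg had 17456 and 15552, above the 14587 and 12048 of those it calls cTreg. Summed scores over 86 peaks at the Treg markers Foxp3, Il2ra, Ctla4 and Ikzf2 were 9118 and 9893 in WT Treg against 5403 and 6467 in Tconv. These sums were 11896 and 11552 in cTreg against 6722 and 6804 in Tnaive, with 55 peaks higher and 2 lower. They were 11730 and 12245 in eTreg against 8103 and 8334 in Teff, with 44 higher and 3 lower. Of all peaks 8.8% and 8.4% were higher in these contrasts and 7.82% and 9.07% lower. Foxp3R397W had 9660 and 9064 and its control 11036 and 9692.

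Markers of other cells also moved with the groups. Of the 9 peaks at B cell markers (none lay at Cd79a or Ms4a1) 6 were higher and 1 lower in eTreg than in cTreg, with sums of 461 and 492 against 126 and 176. Of 26 peaks at CD8 and NK cell markers 19 were lower in eTreg, with sums of 723 and 843 against 2099.9 and 2134 in cTreg. Of 18 peaks at myeloid markers (none at Csf1r or Adgre1) 3 were higher and 3 lower. In Teff against Tnaive 5 B cell peaks were higher and 1 lower (sums of 433 and 392 against 80.5 and 84.2), 19 CD8 and NK cell peaks were lower (1132 and 1267 against 3155 and 3133) and 6 myeloid peaks were lower. In WT Treg against Tconv 3 B cell peaks were higher (318 and 310.3 against 175 and 168) and 6 CD8 and NK cell peaks lower (1323 and 1394 against 2377 and 2290.3). The naive T cell sums were 7754 and 9003 in WT Treg against 10736 and 10649.5 in Tconv, with 20 peaks lower and 2 higher. Their part in the results below was not tested. In mixed samples, fewer cells of a type and less accessibility per cell cannot be told apart.

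Start-site peaks of the members showed few differences. Scores are reads times 1 factor per library, and a peak was called when the limma Benjamini-Hochberg adjusted p over all 69316 peaks was under 0.05. None of the 22 start-site peaks was called in 10 of the 12 contrasts. In eTreg against cTreg, where 37.1% of all peaks were called, 3 were lower, at Uhrf1, Kdm2b and Ezh2. In Teff against Tnaive, where 40.3% of all peaks were called, 20.7% higher and 19.6% lower, 3 were lower, at Dnmt1, Hdac5 and Suz12. That is 13.6% of the 22 in each contrast, beside 17.9% and 21.3% of all 7679 start-site peaks. Kdm2b had 3 start-site peaks, and the others were not called. Its called peak covers a start at 122900367, inside the gene body (122870664-122989270). The Dnmt1 start under its peak, 20952979, also lies inside the body (20907206-20959888). For these 6 peaks the 250 bases before the most upstream listed start under the peak are shown, because they were the called ones. The bases are RefSeq sequence of GRCm38.p6 (mm10), 5′ to 3′ on the gene's strand, with each CpG, the dinucleotide that DNA methyltransferases act on, in capitals.
Dnmt1: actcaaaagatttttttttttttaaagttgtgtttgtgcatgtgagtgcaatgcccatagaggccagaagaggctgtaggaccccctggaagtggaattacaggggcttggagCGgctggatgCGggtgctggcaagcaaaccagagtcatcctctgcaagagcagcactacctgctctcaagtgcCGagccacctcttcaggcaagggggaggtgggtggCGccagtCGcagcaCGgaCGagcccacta
Uhrf1: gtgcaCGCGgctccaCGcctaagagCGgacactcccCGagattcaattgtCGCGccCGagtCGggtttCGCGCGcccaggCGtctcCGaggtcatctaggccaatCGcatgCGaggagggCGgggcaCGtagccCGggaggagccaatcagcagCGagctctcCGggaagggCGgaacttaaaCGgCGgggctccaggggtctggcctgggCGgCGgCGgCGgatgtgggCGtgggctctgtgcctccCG
Ezh2: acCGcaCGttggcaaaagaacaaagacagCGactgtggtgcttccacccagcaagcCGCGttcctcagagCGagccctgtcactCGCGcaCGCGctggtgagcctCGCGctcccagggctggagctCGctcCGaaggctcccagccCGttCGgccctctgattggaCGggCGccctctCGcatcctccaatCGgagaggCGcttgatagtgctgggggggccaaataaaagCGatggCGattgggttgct
Suz12: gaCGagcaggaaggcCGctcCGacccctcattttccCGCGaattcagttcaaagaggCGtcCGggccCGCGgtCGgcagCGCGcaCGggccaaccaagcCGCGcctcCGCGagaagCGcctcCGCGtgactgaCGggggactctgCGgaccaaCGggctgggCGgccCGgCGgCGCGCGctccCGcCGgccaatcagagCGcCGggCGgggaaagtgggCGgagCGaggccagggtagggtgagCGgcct
Kdm2b: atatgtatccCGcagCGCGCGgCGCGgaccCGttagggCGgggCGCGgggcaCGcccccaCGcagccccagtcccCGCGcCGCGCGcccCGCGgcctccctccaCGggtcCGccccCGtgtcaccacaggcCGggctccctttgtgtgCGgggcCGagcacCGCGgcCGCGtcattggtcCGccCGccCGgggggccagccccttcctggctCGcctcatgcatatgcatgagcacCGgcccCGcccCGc
Hdac5: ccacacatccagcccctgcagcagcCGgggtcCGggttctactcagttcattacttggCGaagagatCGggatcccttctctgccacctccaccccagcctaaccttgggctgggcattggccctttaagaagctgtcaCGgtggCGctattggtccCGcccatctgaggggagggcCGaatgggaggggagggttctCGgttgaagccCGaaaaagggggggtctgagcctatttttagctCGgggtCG

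The Dnmt1 sequence (chr9:20952980-20953229, minus strand) held 7 CpG, near the median of 6 over 32817 mouse promoter windows. The windows of Hdac5 (chr11:102230173-102230422, minus) and Ezh2 (chr6:47595031-47595280, minus) held 12 and 23. The windows of Uhrf1 (chr17:56304063-56304312, plus), Kdm2b (chr5:122900368-122900617, minus) and Suz12 (chr11:79992856-79993105, plus) held 30, 36 and 37. Their GC content was 54.8% (Dnmt1), 60.8% (Hdac5), 63.6% (Ezh2), 69.6% (Uhrf1), 73.6% (Suz12) and 78% (Kdm2b), against a median of 52.4%. On both strands the AP-1 letters TGANTCA, which BATF dimers can bind, were in none of the 6 and in 6.75% of all windows. The SP and KLF letters GGGCGG were in Kdm2b (5), Suz12 (3), Uhrf1 (3) and Hdac5 (1) and in 32.7% of all windows. The E2F letters TTCCCGC and the TCF-1 and LEF-1 letters CTTTGA were in Suz12 alone of the 6, and in 3.82% and 13.8% of all. The RUNX letters TGTGGT were in Ezh2 and Kdm2b and in 14.04% of all. The ETS letters CCGGAAG and the forkhead letters TGTTTAC were in none of the 6 and in 6.90% and 3.16% of all, and the NRF1 motif was in none and in 0.777% of all. Of the 35 members 30 were in the promoter table.

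Dnmt1, which copies methylation onto new DNA strands, had start-site scores of 310.02 and 237 in Teff and 462 and 453 in Tnaive at chr9:20952739-20953139 (log2 change -0.75 ± 0.16, adjusted p = 0.000438). Both Teff libraries were below both Tnaive libraries, and the call held under each alternative run. The other 5 changes were small: -0.46 ± 0.15 at Uhrf1, -0.62 ± 0.24 at Kdm2b, -0.37 ± 0.15 at Ezh2, -0.45 ± 0.17 at Suz12 and -0.56 ± 0.19 at Hdac5 (log2 change ± SE). Each of these 5 calls was lost on leaving out at least 1 library: without eTreg 2 the changes were -0.37 at Uhrf1, -0.68 at Kdm2b and -0.42 at Ezh2, and without Teff 2 they were -0.26 at Suz12 and -0.30 at Hdac5. The call at Uhrf1 was also lost without cTreg 1 (-0.41), those at Kdm2b and Ezh2 without any 1 of the 4 libraries, those at Suz12 and Hdac5 without Tnaive 1 (-0.49 and -0.50), and that at Suz12 without Tnaive 2 (-0.41).

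**Figure D1:**
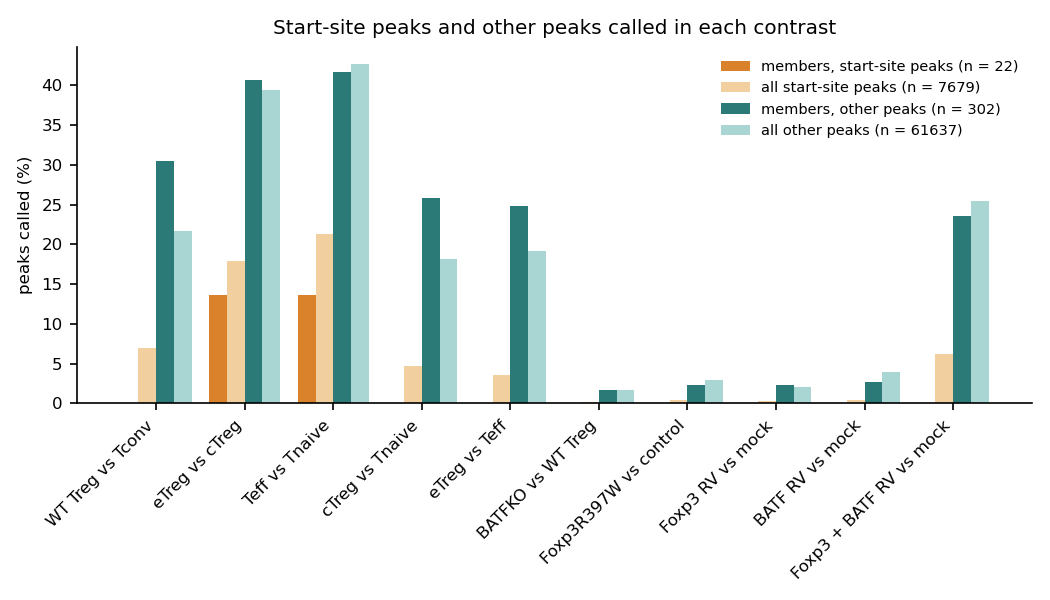
Percent of peaks called (y axis) in each of 10 contrasts between groups (x axis), for start-site peaks and other peaks of the members and of the whole table. The 22 member start-site peaks reach 13.6% in eTreg against cTreg and in Teff against Tnaive and 0% in the other 8, while the other 302 member peaks reach up to 41.7%.

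The strongest peak of each member was its start-site peak for 18 of 35 genes, and for most it was open in every group. Hdac4, a class IIa deacetylase, had the highest mean over the 26 libraries (1966 at chr1:92180251-92180651). Smarca2, an ATPase of the BAF remodelers, had a mean of 1217 and the Polycomb subunit Eed 947. Of all peaks 62.2% were called in at least 1 contrast. All start-site peaks were called less often than other peaks, for example 7.01% against 21.7% in WT Treg against Tconv. The strongest peak was called in no contrast for 25 of the 35 genes, and the share among equally strong peaks of other genes was not computed. Hdac9, another class IIa deacetylase, and Arid2, a subunit of the PBAF remodeler, were exceptions, each with its strongest peak called in 5 contrasts. Hdac9 at chr12:34802345-34802745 scored 274 and 330.1 in eTreg and 159.96 and 194 in cTreg, against 80.1 and 109 in Teff and 2.55 and 16.8 in Tnaive. Arid2 at chr15:96297782-96298182 was instead lowest in eTreg and highest in Tnaive, with eTreg at 69.8 and 52.7, cTreg at 218 and 219, Teff at 184 and 224 and Tnaive at 405 and 355. Neither gene's eTreg libraries overlapped those of the other 3 groups. Bmi1, a subunit of PRC1, ranged from 429 ± 35.1 in cTreg to 34.1 ± 2.60 in DKO Treg with both viruses (mean ± SD, n = 2), but no Bmi1 peak was called in any contrast. Levels set across all 13 groups span both protocols, which cannot be told apart from the groups.

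**Figure D2:**
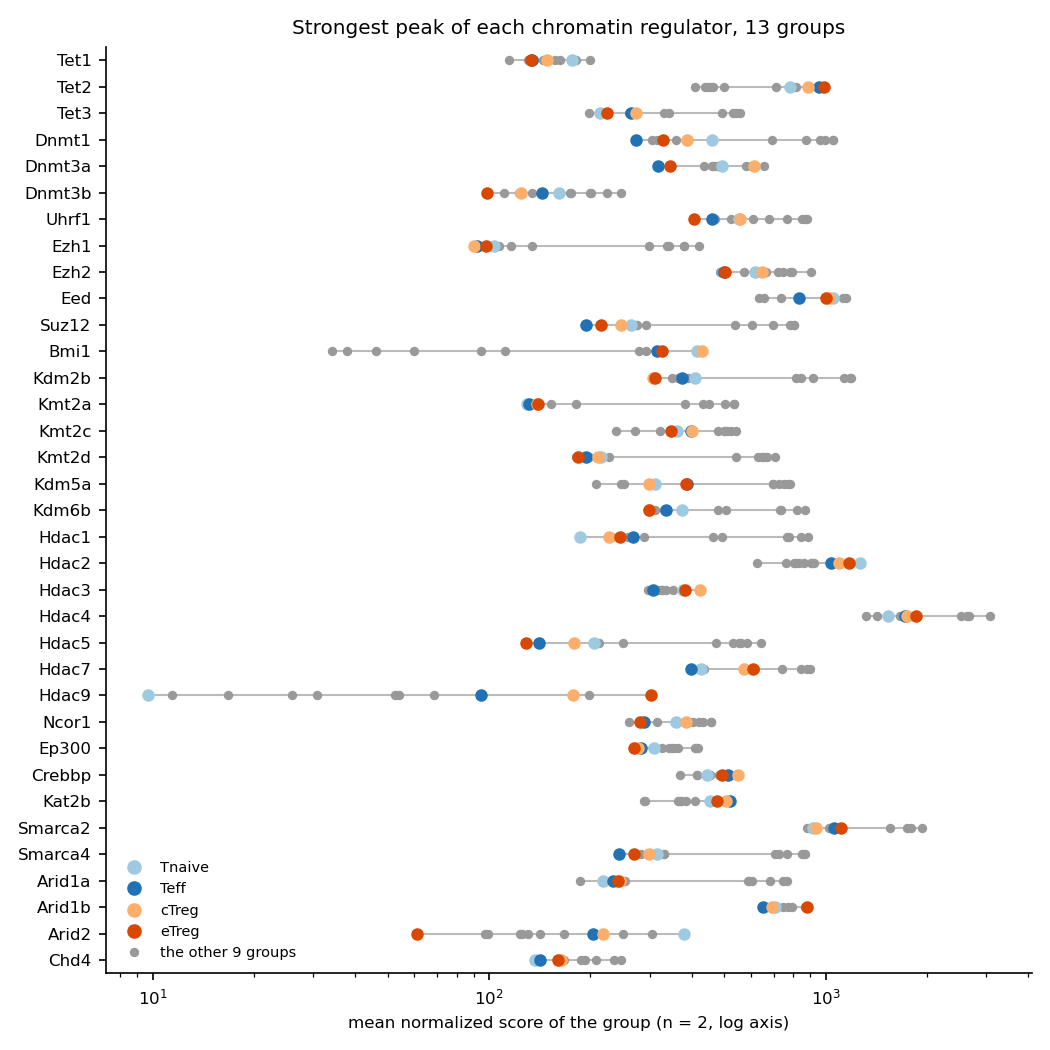
Mean normalized score (x axis, log scale) of each member's strongest peak in the 13 groups, with Tnaive, Teff, cTreg and eTreg coloured and the other 9 groups in grey. Most members stay within a few-fold across groups, while Hdac9 runs from 9.70 in Tnaive to 302 in eTreg and Arid2 from 61.2 in eTreg to 380 in Tnaive.

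The members were called about as often as all peaks between effector and resting cells, and higher in Treg at a larger share than all peaks. In WT Treg against Tconv 60 of the 324 peaks were higher and 32 lower, 28.4% in all, where 20% of all peaks were called, 10.1% higher and 9.92% lower. In cTreg against Tnaive 56 were higher and 22 lower (24.1%, background 16.6% of all peaks, 8.8% higher and 7.82% lower). In eTreg against Teff 46 were higher and 29 lower (23.1%, background 17.5% of all peaks, 8.4% higher and 9.07% lower). For the step from resting to effector, eTreg against cTreg gave 63 higher and 63 lower (38.9%, background 37.1% of all peaks, 19.7% higher and 17.4% lower) and Teff against Tnaive 68 and 61 (39.8%, background 40.3% of all peaks, 20.7% higher and 19.6% lower), both near the background.

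Hdac9 gave 19 and Kat2b 7 of the 60 peaks higher in WT Treg. Leaving out these 2 genes, a choice made after their values were seen, 283 peaks remained. Of these 34 were higher in WT Treg than in Tconv (12.01% against 10.1% of all peaks), 28 in cTreg than in Tnaive (9.89% against 8.8%) and 27 in eTreg than in Teff (9.54% against 8.4%). Lower were 32 in WT Treg (11.3% against 9.92%), 22 in cTreg (7.77% against 7.82%) and 29 in eTreg against Teff (10.2% against 9.07%). Over all 12 contrasts 210 of 324 member peaks were called at least once (64.8%, against 62.2% of all peaks) and 114 in none. Contrasts that share a group are not independent of each other. Some counts depended on 1 library: without WT_Treg 1 the first contrast called 59 member peaks in place of 92, and without Teff 1 or Teff 2 eTreg against Teff called 49 or 47 in place of 75. Without Teff 1 the latter split into 24 higher and 25 lower.

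**Figure D3:**
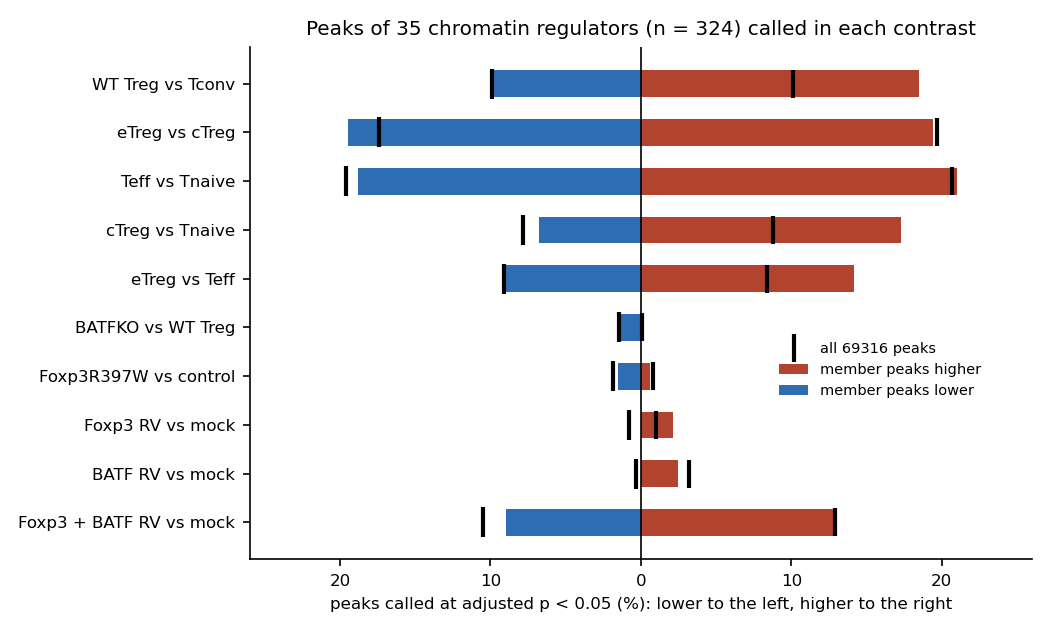
Percent of the 324 member peaks called higher (right) or lower (left) in each contrast between groups, with a black mark for the percent of all 69316 peaks called in that direction. Member peaks higher in Treg pass the mark in WT Treg against Tconv (18.5% against 10.1%) and cTreg against Tnaive (17.3% against 8.8%), and lie close to it in both effector contrasts.

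Among the deacetylases and the corepressor gene Ncor1 (76 peaks), WT Treg had 30 higher and 7 lower than Tconv. That was 39.5% higher and 9.21% lower, beside 10.1% and 9.92% of all peaks. Hdac9 alone gave 19 of the 30, and none of its 25 peaks was lower in that contrast. The same count, 19 higher and none lower, was found in cTreg against Tnaive, with 13 higher in eTreg against Teff and 11 in Teff against Tnaive. Of all peaks 8.8%, 8.4% and 20.7% were higher in these contrasts. At chr12:34497707-34498107, inside the gene, scores were 109 and 95.95 in WT Treg and 4.90 and 6.82 in Tconv (log2 change 3.93 ± 0.42, adjusted p = 6.69e-08). The libraries of the groups did not overlap here, nor at any other peak named below as called between 2 groups. In contrasts with more than 10 called member peaks this was a condition for choosing the peaks, start-site peaks apart. There it is no separate support. In the sorted subsets this peak scored 176 and 192 in eTreg, 52.4 and 69.4 in cTreg and 98.4 and 75.3 in Teff. Tnaive held 1 read there against 190 in Teff, a ratio of 136 whose 95% counting interval ran from 24.1 to 5404. Of the 4 subsets Tnaive alone was nearly without reads at this peak. A second Hdac9 peak at chr12:34907016-34907416, 9879 bases downstream of a listed start, was high in both Treg subsets and low in both conventional ones, with eTreg at 185 and 209.5, cTreg at 116 and 125, Teff at 20.9 and 22.5 and Tnaive at 33.2 and 15.5 (eTreg against Teff, 3.12 ± 0.50, adjusted p = 3.9e-05).

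The 30 peaks of Hdac4 moved both ways. In eTreg against cTreg 15 were higher and 4 lower (19.7% and 17.4% of all peaks). In Teff against Tnaive it was 7 and 7, near the background (20.7% and 19.6% of all peaks). In WT Treg against Tconv it was 8 and 5 (10.1% and 9.92% of all peaks). A peak in the gene body 175947 bases downstream of the start, at chr1:92004194-92004594, scored 128 and 118 in WT Treg and 26.1 and 29.5 in Tconv (2.11 ± 0.33, adjusted p = 2e-05). At chr1:92130411-92130811 the order was reversed, with 16.6 and 10.5 in eTreg against 155 and 166 in cTreg (-3.50 ± 0.30, adjusted p = 2.21e-10) and 31.4 and 36.2 in Teff against 285 and 309.7 in Tnaive (-3.10 ± 0.30, adjusted p = 1.27e-09). Both effector groups were far below their resting groups at that peak, while the start-site peak of Hdac4 was not called in either contrast. Hdac2, a class I deacetylase, had 1 called peak of its 3, at chr10:36935893-36936293, 38004 bases from the body with Hs3st5 101496 bases away. WT Treg scored 117 and 94.9 there, Tconv 6.53 and 18.2, eTreg 227 and 282, cTreg 41.8 and 33.1 and Teff 53.99 and 66.5, and Tnaive held 1 read. It was higher in WT Treg than in Tconv (3.15 ± 0.41, adjusted p = 1.49e-06) and in eTreg than in cTreg (2.74 ± 0.41, adjusted p = 4.01e-06). All 4 peaks of Hdac5 were lower in Teff than in Tnaive, where 19.6% of all peaks were lower. An example is chr11:102223107-102223507, with 28.7 and 30.3 against 74.1 and 79.04 (-1.34 ± 0.28, adjusted p = 0.000306). No peak of Hdac3 was called.

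**Figure D4:**
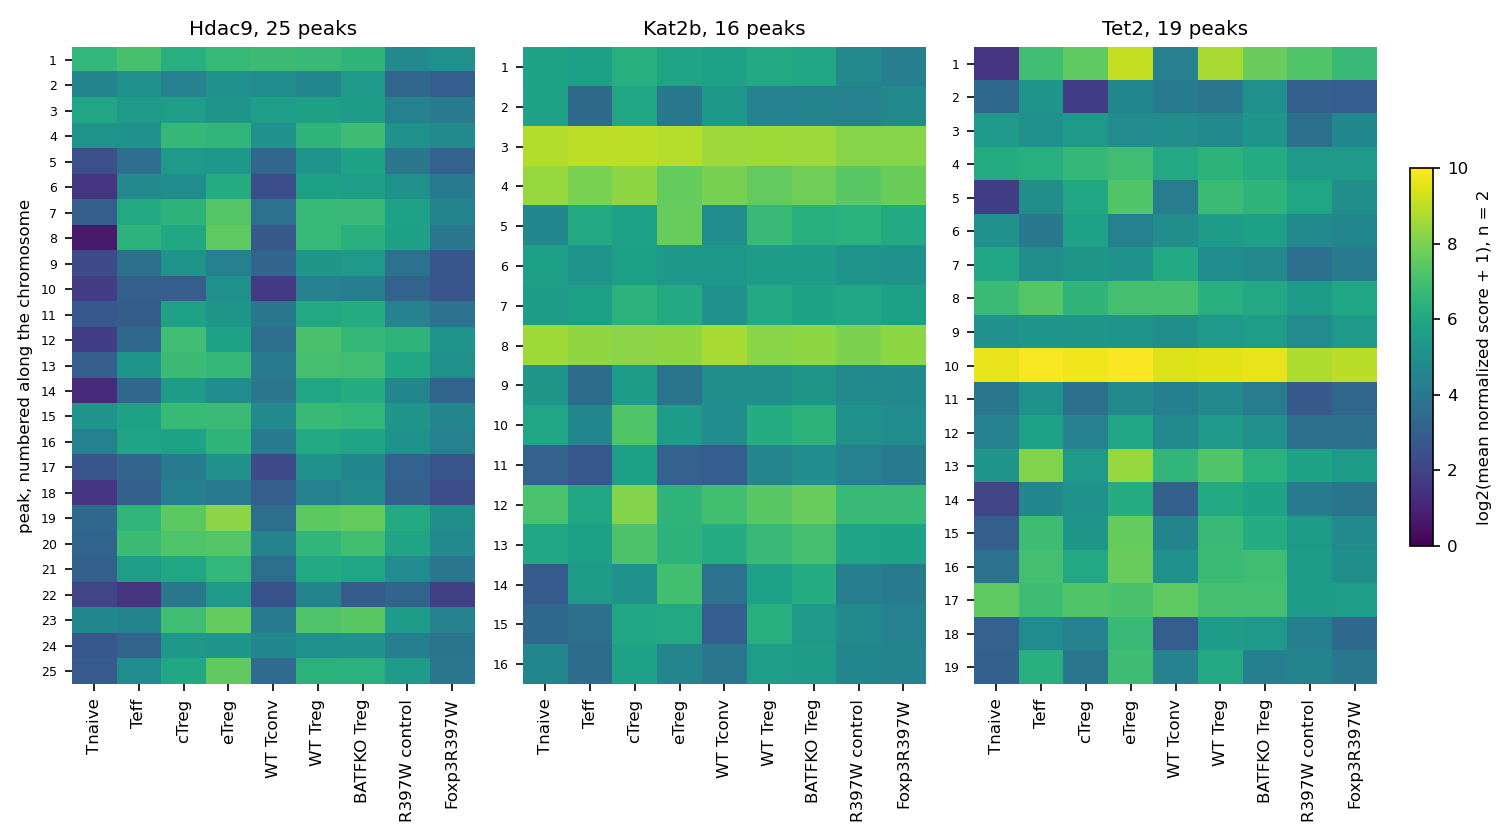
Mean of 2 libraries as log2(score + 1), shown by colour, for every peak of Hdac9, Kat2b and Tet2 (rows, numbered along the chromosome) in the 9 groups without virus (columns). Most Hdac9 rows are darker in Tnaive and Tconv than in cTreg, eTreg and WT Treg, Kat2b holds constant rows beside rows brightest in cTreg, and the Tet2 start-site row is bright throughout.

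Among the acetyltransferases (22 peaks) 31.8% were called in WT Treg against Tconv (background 20% of all peaks) and 54.5% in eTreg against cTreg (background 37.1%). The calls came mostly from Kat2b, which encodes PCAF. It had 7 peaks higher and none lower in WT Treg than in Tconv, 9 and none in cTreg against Tnaive and 6 and none in eTreg against Teff. Of all peaks 10.1%, 8.8% and 8.4% were higher in these contrasts. In eTreg against cTreg, by contrast, 2 were higher and 8 lower, and with both viruses in DKO Treg (23.3% of all peaks called) 7 were lower and none higher. At chr17:53631348-53631748 scores were 135 and 175 in cTreg, 39.9 and 50.3 in eTreg, 43.4 and 75.1 in Tnaive and 24.4 and 21.5 in Teff (eTreg against cTreg, -1.76 ± 0.30, adjusted p = 1.97e-05). At chr17:53577740-53578140 eTreg was instead the highest, with 172 and 239 against 51.5 and 52.9 in cTreg, 61.8 and 70.4 in Teff and 26.8 and 20.7 in Tnaive (eTreg against Teff, 1.60 ± 0.27, adjusted p = 6.98e-05). The highest group was thus cTreg at one peak and eTreg at the other. The single Crebbp peak was called in no contrast. Ep300 had 1 or 2 of its 5 peaks lower in each of 5 contrasts and none higher, where 7.82% to 19.6% of all peaks were lower.

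The 3 TET genes, which encode the 5-methylcytosine dioxygenases, did not move together. Of their 39 peaks 51.3% were called in eTreg against cTreg (background 37.1% of all peaks) and 53.8% in Teff against Tnaive (background 40.3%). In WT Treg against Tconv 38.5% were called (background 20%). Tet2 had 10 of 19 peaks higher and 1 lower in eTreg than in cTreg, 9 and 2 in Teff against Tnaive and 7 and 1 in WT Treg against Tconv. The largest difference of any called member peak in WT Treg against Tconv was at the Tet2 peak at chr3:133436993-133437393, 26284 bases beyond the body, with Ppa2 58758 bases away. It scored 489 and 336 in WT Treg against 16.3 and 22.7 in Tconv (4.32 ± 0.42, adjusted p = 9.53e-08). It also scored 539.6 and 529 in eTreg, 184 and 176 in cTreg and 120.2 and 119 in Teff, while Tnaive held 3 reads against 367 in cTreg (ratio 93.6, 95% counting interval 31.8 to 456). A second Tet2 peak on the upstream side, at chr3:133563535-133563935, was high in both effector groups, with 320.2 and 383 in eTreg and 286 and 262 in Teff against 39.99 and 39.7 in cTreg and 43.4 and 28.5 in Tnaive (eTreg against cTreg, 3.10 ± 0.29, adjusted p = 1.56e-09). The Tet2 start-site peak was called in no contrast.

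Tet1 had 4 of 6 peaks lower and none higher in WT Treg than in Tconv (9.92% of all peaks were lower). It had 3 lower and none higher in each effector step (17.4% of all peaks were lower in eTreg and 19.6% in Teff). At chr10:62851603-62852003 it scored 13.3 and 29.3 in eTreg and 31.4 and 50.9 in Teff, against 151 and 175 in cTreg and 234 and 336 in Tnaive (-2.98 ± 0.32, adjusted p = 2.17e-08 and -2.78 ± 0.32, adjusted p = 5.32e-08 for the 2 steps). Tet3 was mixed, with 2 higher and 4 lower of 14 in eTreg against cTreg. At chr6:83421625-83422025 it scored 18.8 and 33.9 in eTreg against 138 and 126 in Teff (-2.33 ± 0.27, adjusted p = 2.72e-07). Both eTreg libraries lay far below both Teff libraries, and no overlap was a condition for choosing this peak.

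The methyltransferase genes and Uhrf1 (23 peaks) had 1 peak higher and 2 lower in WT Treg against Tconv, all at Dnmt3a (13.04%, where 20% of all peaks were called), and none called in cTreg against Tnaive (16.6% of all). In eTreg against cTreg 2 were higher and 5 lower (30.4%, background 37.1%), in Teff against Tnaive 2 and 3 (21.7%, background 40.3%) and with both viruses 3 and 2 (21.7%, background 23.3%). Dnmt3a, a de novo methyltransferase, had 1 higher and 4 lower of 15 in eTreg against cTreg. At chr12:3868501-3868901 it scored 35.4 and 35.7 in WT Treg and 122 and 61.3 in Tconv (-1.26 ± 0.33, adjusted p = 0.00553), but the change was -0.77 without Tconv 1 and no longer called. Dnmt1 had a peak 1620 bases outside its body, at chr9:20961508-20961908, with S1pr2 4044 bases away. It scored 112 and 83.1 in eTreg against 16.9 and 19.8 in cTreg (2.34 ± 0.31, adjusted p = 7.49e-07). In DKO Treg it scored 251 and 263 with both viruses against 44.3 and 46.9 with mock (2.47 ± 0.31, adjusted p = 6.6e-07). The upstream peak rose in eTreg, where the Dnmt1 start-site peak was not called. No peak of Dnmt3b was called.

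Of 45 Polycomb peaks 11 were higher and 5 lower in eTreg than in cTreg (35.6%, background 37.1%) and 11 and 4 in Teff than in Tnaive (33.3%, background 40.3%), both shares below that of all peaks. Ezh2, the H3K27 methyltransferase of PRC2, had 4 higher and 1 lower of 7 in the first. The peak at chr6:47621045-47621445, 25775 bases outside the body with Gm40369 31456 bases away, scored 173 and 198 in eTreg and 10.7 and 16.5 in cTreg (3.70 ± 0.52, adjusted p = 2.87e-06). The peak at chr6:47560880-47561280 inside the gene scored 252 and 216 in Teff and 2.55 and 9.07 in Tnaive (5.29 ± 0.31, adjusted p = 6.61e-14). Both of these Ezh2 peaks were higher in both effector groups, while the start-site peak scored 483 and 519.7 in eTreg and 665 and 630.4 in cTreg.

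Eed, which binds H3K27me3 and is needed for PRC2 activity, had 14 peaks, of which 13 lay upstream, with Hikeshi or Picalm as the next gene. In eTreg against cTreg 5 were higher and 1 lower (19.7% and 17.4% of all peaks). At chr7:90039524-90039924 scores were 157 and 139 in eTreg and 8.89 and 7.71 in cTreg (4.005 ± 0.27, adjusted p = 4.07e-12), and Picalm lies 90268 bases away against 58548 for Eed. At chr7:90007219-90007619 they were 292 and 319 in WT Treg and 76.7 and 79.5 in Tconv (1.95 ± 0.23, adjusted p = 3.54e-07). Not all Eed peaks rose: at chr7:90023077-90023477 Teff scored 138 and 128 against 375 and 382 in Tnaive (-1.51 ± 0.18, adjusted p = 1.24e-07). Suz12 had 1 of its 2 peaks called in each of 5 contrasts. Ezh1, the paralogue of Ezh2, had none higher and 1 or 2 of 5 lower in all 5 contrasts among WT groups. Of all peaks 7.82% to 19.6% were lower in these contrasts.

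Among genes that write or remove H3K4 and H3K27 methylation (26 peaks) 2 were called in WT Treg against Tconv (7.69%, background 20% of all peaks). Both were higher and both at Kmt2a, an H3K4 methyltransferase. Its peak at chr9:44873658-44874058 scored 113 and 118 in eTreg against 38.3 and 52.8 in Teff (1.34 ± 0.25, adjusted p = 0.000224). Kdm5a, an H3K4 demethylase, had a peak 8512 bases outside its body at chr6:120453086-120453486, 9695 bases from Il17ra, which was higher in Teff (149 and 176) than in eTreg (24.4 and 36.3). The change was -2.41 ± 0.35, adjusted p = 7.99e-06 for eTreg against Teff. Kdm6b, an H3K27 demethylase, had 1 of 6 peaks lower in cTreg and in Teff than in Tnaive, and Kmt2d 1 of 5 lower in eTreg than in cTreg.

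The remodelers (93 peaks) had 14 peaks lower in WT Treg and 5 lower in Tconv. The total of 20.4% was near the 20% of all peaks. By direction 15.1% were lower in WT Treg and 5.38% higher, beside 9.92% and 10.1% of all peaks. Arid1b, a BAF subunit, had 6 lower and 1 higher of 44, and 15 lower and 3 higher in eTreg against cTreg (17.4% and 19.7% of all peaks). At chr17:5009842-5010242 it scored 109.98 and 124 in WT Treg and 343 and 291 in Tconv (-1.43 ± 0.20, adjusted p = 5.28e-06). At chr17:5249113-5249513 it scored 8.86 and 12.9 in eTreg and 94.2 and 138 in cTreg (-3.30 ± 0.30, adjusted p = 7.25e-10). The strongest Arid1b peak was called in no contrast. The Arid2 peak described above was lower in WT Treg than in Tconv, with 122 and 126 against 325 and 284 (-1.29 ± 0.20, adjusted p = 2.15e-05). Smarca2 and Smarca4 encode the alternative ATPases of the BAF complex. Smarca2 at chr19:26683761-26684161 scored 125 and 127 in WT Treg against 26.1 and 27.3 in Tconv (2.19 ± 0.23, adjusted p = 4.07e-08). Smarca4 had a peak 5827 bases outside its body at chr9:21609879-21610279, 13909 bases from Timm29, that was low in Tnaive alone among the subsets, with 16.6 and 11.7 there, 146 and 129 in cTreg, 233 and 245 in Teff and 327 and 316 in eTreg (cTreg against Tnaive, 3.21 ± 0.22, adjusted p = 5.73e-12). Chd4, the ATPase of the NuRD complex, had 1 of 4 peaks lower in each effector step.

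The effector step itself was compared between lineages by an interaction (eTreg minus cTreg, minus Teff minus Tnaive). Of the member peaks 2 had a more positive step in Treg and 20 a more negative one (6.79%, background 3.91% of all peaks, 1.18% positive and 2.72% negative), and 7 of the 20 were at Hdac9. At chr12:34806553-34806953 the step went from 145 and 154 to 151 and 171 in Treg and from 10.2 and 6.48 to 107 and 124 in conventional cells (difference of log2 changes -3.57 ± 0.49, adjusted p = 2.69e-05). The peak was higher in Teff than in Tnaive and not called in eTreg against cTreg. At Smarca4 chr9:21609879-21610279 the difference was -2.78 ± 0.31, adjusted p = 1.18e-06. In the other direction, Hdac4 at chr1:92148481-92148881 went from 13.3 and 6.61 to 21.1 and 33.9 in Treg and from 57.5 and 32.4 to 9.58 and 17.6 in conventional cells (3.07 ± 0.63, adjusted p = 0.00339). Without Teff 2 the interaction called 14 member peaks in place of 22.

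BATFKO Treg differed from WT Treg at few member peaks. BATF is an AP-1 family factor needed for effector differentiation of T cells. In BATFKO against WT Treg 5 member peaks were lower and none higher (1.54%, background 1.49% of all peaks, 0.062% higher and 1.43% lower). All 5 lay away from start sites. By size they were at Ezh2, Hdac4 (2), Eed and Kmt2a. The Ezh2 peak at chr6:47621045-47621445 scored 9.96 and 2.53 in BATFKO and 115 and 82.7 in WT Treg (-3.99 ± 0.52, adjusted p = 2.66e-05). The Hdac4 peak at chr1:92119217-92119617 scored 35.98 and 39.2 and 176 and 129 (-1.97 ± 0.26, adjusted p = 1.43e-05), and the Kmt2a peak at chr9:44868672-44869072 scored 22.7 and 25.3 and 63.5 and 63.3 (-1.37 ± 0.26, adjusted p = 0.00162). At all 3 both BATFKO libraries lay below both Tconv libraries. The other 2 were an Hdac4 peak at chr1:91942635-91943035 (8.30 and 8.84 against 42.8 and 37.8, change -2.11 ± 0.54, adjusted p = 0.0382) and the Eed peak at chr7:90002744-90003144 (9.96 and 11.4 against 41.5 and 42.9, -1.89 ± 0.39, adjusted p = 0.00529). They have mean scores below the median of the table and are named because so few were called. Without WT_Treg 1 their changes were -2.02 and -1.91 and without BATFKO 1 they were -2.07 and -1.80, none of them called. With either library left out, or WT_Treg 2, 3 member peaks remained called.

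All 5 of these peaks were also higher in eTreg than in cTreg and in Teff than in Tnaive, comparisons that share no library with BATFKO against WT Treg. Of all peaks 19.7% were higher in eTreg and 20.7% in Teff. The share among all 989 peaks lower in BATFKO was not computed. At the Ezh2 peak Teff scored 74.02 and 89.02 and Tnaive 2.55 and 15.5. At the Hdac4 peak with the higher scores eTreg had 296 and 243 and cTreg 35.5 and 49.6 (2.65 ± 0.26, adjusted p = 2.89e-09). At Eed chr7:90002744-90003144 eTreg had 142 and 136, cTreg 21.3 and 27.6, Teff 49.6 and 35.2 and Tnaive 3.83 and 2.59. All 5 were higher in WT Treg than in Tconv as well (10.1% of all peaks were), a comparison that shares the WT Treg libraries.

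Of the 5 peaks 4 were higher in DKO Treg with the BATF virus than with mock. How many of all 989 peaks lower in BATFKO were higher with this virus was not computed. BATF virus against mock gave 8 member peaks higher and none lower (2.47%, background 3.49% of all peaks, 3.2% higher and 0.291% lower), and 4 of the 8 were among those lower in BATFKO. The Ezh2 peak scored 161 and 291 with BATF and 10.5 and 23.5 with mock (3.69 ± 0.52, adjusted p = 3.52e-05), the Kmt2a peak 242 and 339 and 42.2 and 30.3 (2.97 ± 0.26, adjusted p = 3.53e-09), and the Hdac4 peak at chr1:92119217-92119617 139 and 211 and 29.5 and 26.4 (2.57 ± 0.26, adjusted p = 7.01e-08). At each of the 3 both BATF libraries lay above both mock libraries. The Eed peak held no read in either mock library. It scored 40.8 and 48.96 with BATF, a ratio of 29.8 to mock when mock is set to a floor of 3 reads over the group. The exact 95% lower counting limit of the ratio, from 84 reads against 0, was 23.7. The remaining 4 of the 8 were 3 Tet2 peaks and the Dnmt1 upstream peak (1.22 ± 0.31, adjusted p = 0.0207). The Dnmt1 call was lost on leaving out any 1 of the 4 libraries (1.17 to 1.27). The Tet2 changes were 1.38 ± 0.27, 1.19 ± 0.30 and 2.27 ± 0.48 at chr3:133526290-133526690, chr3:133510355-133510755 and chr3:133626585-133626985. Without BATF 2 the first was 1.11, without mock 2 the second was 0.97 and the third 2.17, and none of these was called. Without BATF 1 the second was 0.93 and not called.

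Foxp3, the lineage factor of Treg, alone gave 7 member peaks higher and none lower against mock (2.16%, background 1.82% of all peaks, 1.01% higher and 0.814% lower), at Hdac9 (2), Eed, Suz12, Hdac4, Smarca2 and Tet1. The Eed peak at chr7:90002744-90003144 scored 8.61 and 12.3, a ratio of 6.65 to mock at the same floor. The exact lower counting limit was 4.81 (16 reads against 0). The Hdac9 peak at chr12:34497707-34498107 scored 21.5 and 36.8 with Foxp3 and 9.49 and 3.91 with mock (2.02 ± 0.42, adjusted p = 0.0104), with changes of 1.48 without mock 2 and 1.65 without Foxp3 2, neither called. Without mock 2 or Foxp3 2 a single member peak was called, the Eed peak named above, and with quantile scaling 2 were. The Tet1 peak at chr10:62883903-62884303 scored 51.6 and 47.6 with Foxp3 against 17.9 and 17.6 with mock (1.43 ± 0.33, adjusted p = 0.0217), and lost its call on leaving out any 1 of the 4 libraries (1.37 to 1.49).

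Both viruses together gave 42 member peaks higher and 29 lower (21.9%, background 23.3% of all peaks, 12.9% higher and 10.5% lower). All 5 peaks lower in BATFKO were among the higher ones, and the matching share among all 989 peaks lower in BATFKO was not computed. The Hdac4 peak at chr1:92119217-92119617 scored 309.7 and 429.5 with both (3.66 ± 0.26, adjusted p = 1.96e-11), above both libraries with BATF alone. The Eed peak scored 174 and 137 with both, also above both libraries with BATF alone. Its ratio to mock at the floor of 3 reads was 103 (exact lower counting limit 83.4). At the Ezh2 and Kmt2a peaks the libraries with both scored 172 and 273 and 167 and 188, where those of Ezh2 overlapped BATF alone and those of Kmt2a lay below it. These differences between both factors and BATF alone were not tested. Among peaks that fell with both were Tet3 chr6:83437250-83437650 (34.95 and 36.8 against 127 and 139.8 with mock, -1.86 ± 0.23, adjusted p = 4.95e-07) and Arid1b chr17:5009842-5010242 (40.8 and 64.5 against 144 and 155, -1.53 ± 0.20, adjusted p = 1.26e-06). The balance depended on scaling and on 1 library: quantile scaling gave 30 higher and 33 lower, and leaving out mock 2 gave 34 and 8. B cell marker sums were higher here too, from 352 and 402 with mock to 658 and 739 with both, and myeloid sums from 909 and 1110.5 to 1518 and 1779. Naive T cell sums went the other way, from 18343 and 25285 to 10827 and 13572, with 40 of 77 peaks lower and 3 higher. Their part was not tested.

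**Figure D5:**
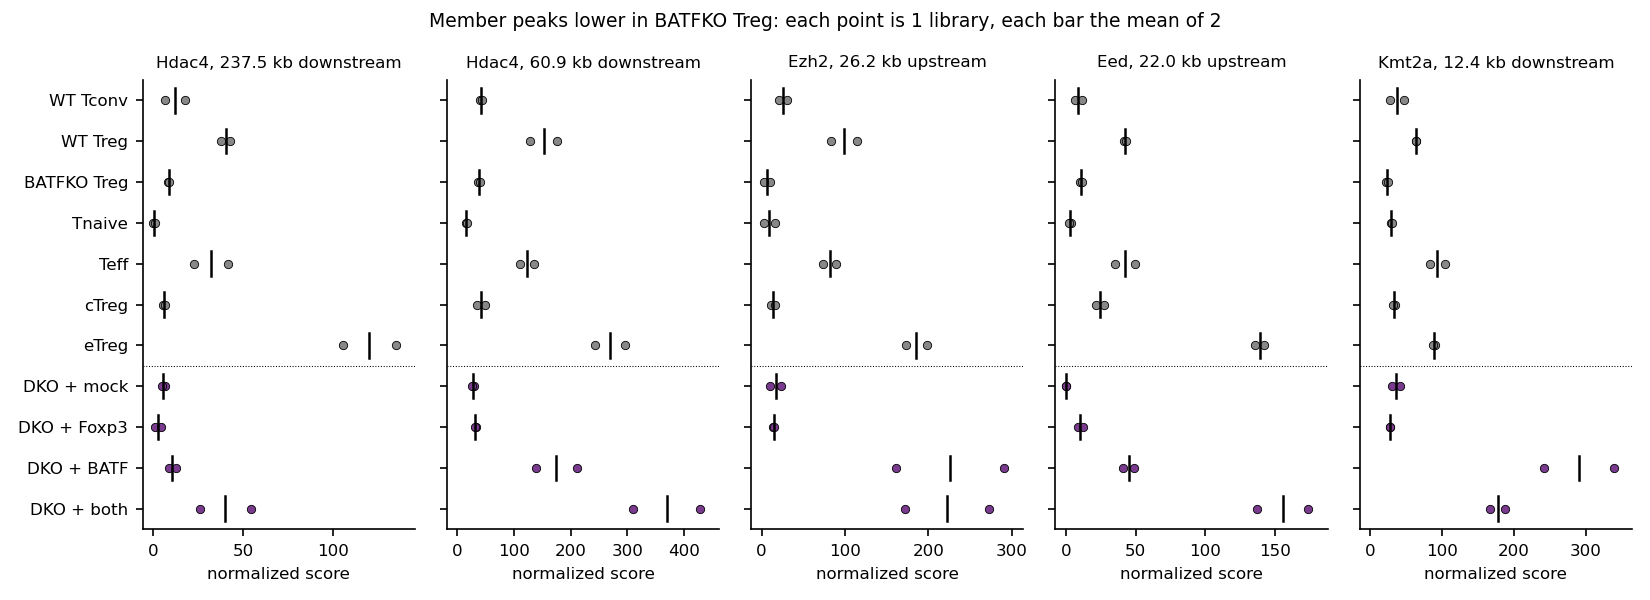
Normalized score (x axis, linear, own scale in each panel) of the 5 member peaks lower in BATFKO Treg, in 11 groups (rows); each point is 1 library, each bar the mean of 2, and panels are named by gene and distance to the nearest start. At Ezh2 the BATFKO points lie at 9.96 and 2.53 beside 115 and 82.7 in WT Treg, and DKO Treg rise from 10.5 and 23.5 with mock to 161 and 291 with BATF.

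In Foxp3R397W Treg against their control 7 member peaks were called, 2 higher and 5 lower (2.16%, background 2.63% of all peaks, 0.776% higher and 1.85% lower). The lower ones were at Eed (2), Hdac9 (2) and Ezh2. The Eed peak at chr7:90002744-90003144 scored 5.06 and 9.88 in Foxp3R397W Treg and 38.8 and 42.1 in the control (-2.35 ± 0.39, adjusted p = 0.000889). The Hdac9 peak at chr12:34497707-34498107 scored 13.5 and 14.8 and 48.2 and 51.5 (-1.75 ± 0.42, adjusted p = 0.0192), and the Ezh2 peak at chr6:47560880-47561280 scored 52.9 and 48.4 and 148 and 115 (-1.35 ± 0.31, adjusted p = 0.0144). Arid1b at chr17:5009842-5010242 was higher, with 187 and 190.3 against 93.1 and 94.3 (1.002 ± 0.20, adjusted p = 0.00518). Mutant and control libraries did not overlap at these 4 peaks. The Eed peak kept its call on leaving out any 1 library, while each of the other 3 lost it on leaving out any 1 of the 4: the Hdac9 change was then -1.68 to -1.81, the Ezh2 change -1.17 to -1.53 and the Arid1b change 0.99 to 1.01. The count fell to between 1 and 3. It rose to 18 with a pseudocount of 5 and to 39 with edgeR on the recovered reads.

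Departure from additive effects of the viruses (both minus Foxp3 minus BATF plus mock) was called at 3 member peaks, all negative (0.926%, background 1.09% of all peaks, 0.586% positive and 0.506% negative). At Hdac4 chr1:92178018-92178418 mock scored 158 and 186, Foxp3 152 and 166, BATF 161 and 149 and both 73.8 and 65.6 (-1.03 ± 0.25, adjusted p = 0.0415). Only the libraries with both viruses were low. Each of the 3 calls was lost on leaving out 1 or more libraries: without mock 2 the changes were -1.14 here, -2.10 at Tet1 and -2.71 at Hdac9, and no member peak was called. The direction of the calls depended on the setting: 7 positive and 3 negative were called with a pseudocount of 5, 3 and 3 with the replicate block, and 5 and 3 without Foxp3 1.

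A list of 85 further chromatin regulators, chosen with earlier results of these data known, had 473 peaks at 83 genes. In WT Treg against Tconv 24 were higher and 44 lower (14.4%, beside 20% of all peaks). In eTreg against cTreg it was 61 and 76 (29.0%, beside 37.1%) and in Teff against Tnaive 61 and 80 (29.8%, beside 40.3%). In cTreg against Tnaive it was 19 and 40 (12.5%, beside 16.6%). With both viruses 49 were higher and 39 lower (18.6%, beside 23.3%), and in BATFKO 4 were lower and none higher (0.846%, beside 1.49%). The median log2 change in WT Treg against Tconv was -0.03 over this list and 0.08 over the 324 member peaks, where all peaks had a median of 0.01.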

How the data were processed

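Accessibility was measured in 26 libraries (13 groups of 2) of a series of 30 samples. The deposited values are a normalized signal per peak, and every score was a library's factor times an integer read count (100% of values within 0.02 reads). Per the submitters' processing notes, the tools were DiffBind 3.0.15 and 3.4.11, edgeR 3.36.0 and 3.38.4, MACS2 2.2.7.1 and Bowtie2 2.4.1, on mm10, and the role of each is not given in the sources used here. No column of the 26-library table is named for the 2 Foxp3KO groups of the series, but the 4 columns used as Teff and Tnaive hold the libraries that the authors' other table names so.

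Peaks were assigned to the nearest RefSeq gene body with bedtools 2.31.1. Library groups were taken from the column names, and the columns called Foxp3WT were read as the control of Foxp3R397W. All 69316 peaks and 26 libraries entered a single limma 3.58.1 fit of log2(score + 1) in R 4.3.3, with 13 residual degrees of freedom. A fold change on this scale understates that of low peaks. A Benjamini-Hochberg adjusted p under 0.05 was called, and the design assumed no block. On simulated data with known changes, 52 of 100 peaks changed 2-fold were recovered for BATFKO against WT Treg and 58 of 100 for WT Treg against Tconv. For 4-fold changes 100 and 99 of 100 were recovered, with 6 and 42 false calls among 69316 peaks. The changed peaks were drawn only from those above the median mean score, where 175 of the 324 member peaks lie. Recovery at weaker peaks was not simulated. Alternatives were a pseudocount of 5, a minimum mean score of 10, quantile scaling, edgeR 4.0.16 quasi-likelihood tests on the recovered reads (deposited or TMM scaling), a replicate block, each library left out and the group names of the other table. Peaks given with values were the strongest of each member and, per contrast, the 6 with the largest change in each direction among called member peaks above the median score without overlap, 1 per gene. For the interactions the 3 with the smallest p per direction were used. Start-site peaks, and all called peaks where 10 or fewer were called, were added after their values were seen. The naive T cell markers are 3 genes of a longer list, and its other gene is not reported here. The members and lists were chosen with earlier results of these data known. Counting intervals are exact at 95% and cover counting error only.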

Additional observations from a re-analysis of the deposited data

Results flagged for a closer look

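By the interaction term itself, 22 member peaks (6.79%, beside 3.91% of all peaks) had different steps from resting to effector in the 2 lineages, Treg and conventional. At Hdac4 the difference of log2 changes was 3.07 at chr1:92148481-92148881 and 3.60 at chr1:92097000-92097400, where eTreg scored 40.99 and 51.5 against 3.55 and 3.31 in cTreg and Teff 9.58 and 18.6 against 11.5 and 20.7 in Tnaive. At Smarca4 it was -2.78 at chr9:21609879-21610279. At Hdac9 it was -3.57 at chr12:34806553-34806953 and -4.26 at chr12:34497707-34498107, where Tnaive held 1 read, so that this value depends on the pseudocount. The 3.60 at Hdac4 does too, since 1 read scored 0.889 and 1.10 in the cTreg libraries.

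The effect of the viruses departed from additive at 3 member peaks (0.926%, a share below the 1.09% of all peaks). At Hdac9 chr12:34489698-34490098 the departure was -3.12, with 4.22 and 1.96 in mock, 18.3 and 13.8 with Foxp3, 7.42 and 9.60 with BATF and 3.88 and 3.45 with both. With 1 read scoring 1.05 and 0.978 in the mock libraries, the departure rests on few reads and depends on the pseudocount. Without mock 2 it was -2.71 and without BATF 2 it was -2.96, neither of them called. At Tet1 chr10:62851603-62852003 it was -1.94, with 33.7 and 42.03 in mock and 14.6 and 20.7 with both. At Hdac4 chr1:92178018-92178418 it was -1.03. The Tet1 call was lost without mock 1 (-1.79), mock 2 (-2.10), Foxp3 2 (-1.48), BATF 1 (-1.78), BATF 2 (-2.11) or the first library with both (-1.70). The Hdac4 call was lost without mock 1 (-0.91), mock 2 (-1.14), Foxp3 2 (-0.97), BATF 1 (-0.97), BATF 2 (-1.09) or the second library with both (-0.95).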

How the results depend on the processing

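Of 113 named peaks in a contrast, 74 kept their call and direction under every alternative except the other group names, and 62 also under these, which could be run only for eTreg against cTreg and Foxp3R397W against its control. Leaving out a library lost 110 calls of 39 such peaks, quantile scaling 11, edgeR 3 with the deposited and 2 with TMM scaling, a pseudocount of 5 lost 2, and the replicate block and the minimum score none. Leaving out 1 library at a time, which assumes that the lone library varies like the other groups, called 59 to 73 member peaks in WT Treg against Tconv, 88 to 99 in eTreg against cTreg, 106 to 116 in Teff against Tnaive, 56 to 67 in cTreg against Tnaive and 47 to 53 in eTreg against Teff. It called 14 to 19 for the interaction of lineage and step, 3 to 4 in BATFKO, 1 to 3 in Foxp3R397W, 1 to 8 with Foxp3, 6 to 9 with BATF, 42 to 52 with both viruses and 0 to 8 for non-additivity (8 without Foxp3 1, 1 without BATF 1, 0 without BATF 2 or mock 2).

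BATFKO gave 9 calls (1 higher, 8 lower) with quantile scaling and 8 with edgeR at deposited or TMM scaling. Foxp3R397W gave 18 (2 and 16) with a pseudocount of 5, 39 (11 and 28) with edgeR at either scaling and 8 (1 and 7) with quantile scaling. Foxp3 gave 2 with quantile scaling. Quantile scaling gave 7 with BATF (6 and 1) and 63 with both (30 and 33). Non-additivity gave 10 (7 positive, 3 negative) with a pseudocount of 5 and 6 (3 and 3) with the replicate block. The cause was not tested. Over all peaks edgeR at the deposited scaling called 2172 higher and 4138 lower in Foxp3R397W, and 164 and 1636 in BATFKO. With 2 numbers per group the numbers do not establish that libraries were paired, and deviations of same-numbered libraries correlated at 0.11 to 0.53. The cause was not tested, and the block moved no other count by over 1.5 times.

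With the other table's names eTreg against cTreg called 7 and Foxp3R397W 126. In eTreg against cTreg the change reversed to -1.19 and 0.11 at Ezh2 (the outside and start-site peaks), -0.29 at Tet2, -1.34 at Hdac2, -0.53 and 0.73 at Hdac4, -0.86 at Dnmt1, 0.60 at Arid1b, 0.79 at Tet1, 0.45 at Tet3, 0.58 at Arid2, 0.17 at Uhrf1 and 0.15 at Kdm2b. These names compare other libraries. With 2 libraries a group, small changes at weak peaks may have been missed, and how often was not measured.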
